A study of Drosophila melanogaster with 9 samples.

Results

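Cells that leave the epithelium of a genetically altered fly wing disc were compared with cells of the unaltered compartment of the same kind of disc. The comparison took 3 arrays of delaminating cells, sorted as positive for RFP and for GFP, and 3 arrays of anterior cells, sorted as negative for both, so 6 of the 9 arrays of the series. The remaining 3 arrays, of posterior cells positive for RFP alone, served to estimate the spread and are given beside the results. Of 18769 probe sets other than controls, the 13647 with 1 gene symbol were tested, and they stood for 11982 genes.

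All cells came from wing imaginal discs of w1118 larvae about 8 days old; these discs are epithelial pouches that form the adult wing and part of the thorax. Every larva carried the driver en-gal4, which is active in the posterior compartment of the disc, together with transgenes for p35, for a double-stranded RNA against asp and for RFP, and a GFP reporter of the gene MMP1. p35 is a viral protein that blocks the effector caspases of cell death, and asp encodes a spindle pole protein whose loss disturbs chromosome segregation. Delaminating cells therefore had the transgene products and an active reporter, posterior cells had the transgene products without reporter signal, and anterior cells carried the same constructs without activity of the driver. Delaminating and anterior cells differed at once in compartment, transgene activity and reporter activity, and these cannot be told apart in the 6 arrays. The anterior population was defined by the absence of fluorescence, so it could hold any cell of the disc without RFP and GFP. The sources used here do not give the number of discs behind an array. asp and the reporter's gene were not analysed here, since no probe set in the table used carried 1 symbol for either.

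When cells with abnormal chromosome numbers in a disc are kept from dying, many of them leave the epithelium on its basal side and switch on the Jun kinase (JNK) pathway. JNK signalling acts through the transcription factors Jun and Fos and is known in discs for inducing matrix metalloproteinases, secreted mitogens such as the Unpaired ligands of the JAK/STAT pathway, and Ilp8, a relaxin-like hormone that delays metamorphosis. Under the notum part of the wing disc lie adult muscle precursors, mesodermal cells that are separate from the epithelium.

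The values are log2 signals, on which a difference of 1 is a doubling. The lower quartile of an array was 6.31 to 6.46. A gene whose mean in a group lay under the lower quartile of every array of that group is called dim there and is given without a fold, because its signal was not shown to be above background. Of the called genes that were not dim in their lower group, 28 higher and 10 lower genes had single values there under the lower quartile of the array, and any fold of theirs rests in part on such values. Among the genes named below 1 of 3 values was so low for CG10126, CG44085, GstE6, upd2, dia, nbs, CG34247, beat-IIIc and CG31999, and 2 of 3 for moody, CG10527, Ku80 and Poxn, which are given without a fold. The arrays differed in quality. Anterior 3 correlated with the others at 0.888 to 0.915, against 0.942 to 0.987 among the other 8, and its upper quartile was 8.87, against 9.23 to 9.30 elsewhere. Delaminating 2 had the highest signal of the 3 delaminating arrays for 10 of 10 markers of hemocytes, the blood cells of the larva. For part of the results that rest on either array, values with and without it are given.

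Of the genes that separate the compartments, en, hh and inv were higher and ci was lower, as the sort labels state, while other genes of anterior identity were not called. en, the selector gene of posterior identity, had 10.24, 11.03 and 10.01 in delaminating cells, 10.45, 10.64 and 10.53 in posterior cells, and 7.10, 6.88 and 7.49 in anterior cells (log2 signal, replicates 1, 2 and 3). The delaminating and anterior values did not overlap, and the difference of 3.27 ± 0.27 (SE, n = 3 arrays per group) was a 9.65-fold higher level (limma adjusted p = 0.000203). The posterior ligand gene hh was 6.17-fold higher (adjusted p = 0.000203) and inv, the paralog of en, 3.10-fold higher (adjusted p = 0.00258). ci, which encodes the Hedgehog effector made in anterior cells, was 4.20-fold lower, at 7.77, 7.89 and 8.04 in delaminating and 10.17, 10.12 and 9.62 in anterior cells (adjusted p = 0.000310). ptc, which encodes the Hedgehog receptor, had a difference of -0.76 at adjusted p = 0.0511, and 0.0479 without anterior 3. Of 4 genes of anterior identity ci was the 1 called, and the list median was -0.09 with 2 genes above 0. kn, which encodes a transcription factor made along the compartment border, lay the other way, at 7.23, 7.40 and 7.09 in delaminating, 8.81, 9.02 and 8.05 in posterior and 6.55, 6.16 and 5.59 in anterior cells, where it was dim; the groups did not overlap, and the difference of 1.14 was not called (adjusted p = 0.0681). dpp, the BMP ligand gene, differed by 0.59 (adjusted p = 0.589), and by -0.15 without anterior 3. The probe sets of en and inv are of a kind whose probes can hit more than 1 transcript.

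Of the 13647 probe sets, limma called 332 higher (2.43%) and 229 lower (1.68%) in delaminating cells relative to anterior cells, in all 4.11%, at a Benjamini-Hochberg adjusted p under 0.05. With each gene represented by its brightest probe set, 293 genes were higher (2.45%) and 176 lower (1.47%), and all 469 (3.91%) had groups that did not overlap. Groups did not overlap for 21.2% of all genes, 13.2% with delaminating values above and 8.05% with them below. The difference was above 0 for 6730 of the 11982 genes. Counts for the gene lists below are to be read beside these shares. At an unadjusted p under 0.05, 10.8% of all genes were higher and 5.77% lower. A difference beyond 2-fold was found for 222 of the higher and 138 of the lower genes. Without anterior 3 there were 328 higher (2.74%) and 278 lower (2.32%) genes, and without delaminating 2 there were 199 higher (1.66%) and 137 lower (1.14%). Of the probe sets with several symbols or none, which are not named, 3.2% were called. Fitted to the 6 arrays alone, 226 probe sets were called, and 183 of the 469 genes kept their call. In all 20 alternative fits 165 of the 469 genes kept their call. The lost calls given below are those with 1 array left out, unless another fit is named. Among the genes named by rule, ImpL2 alone had such a loss and kept its call in the fit to the 6 arrays. With the replicate number as a block, Vinc, Pax, edl, serp, ths and kek1 lost their calls, among others.

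**Figure D1:**
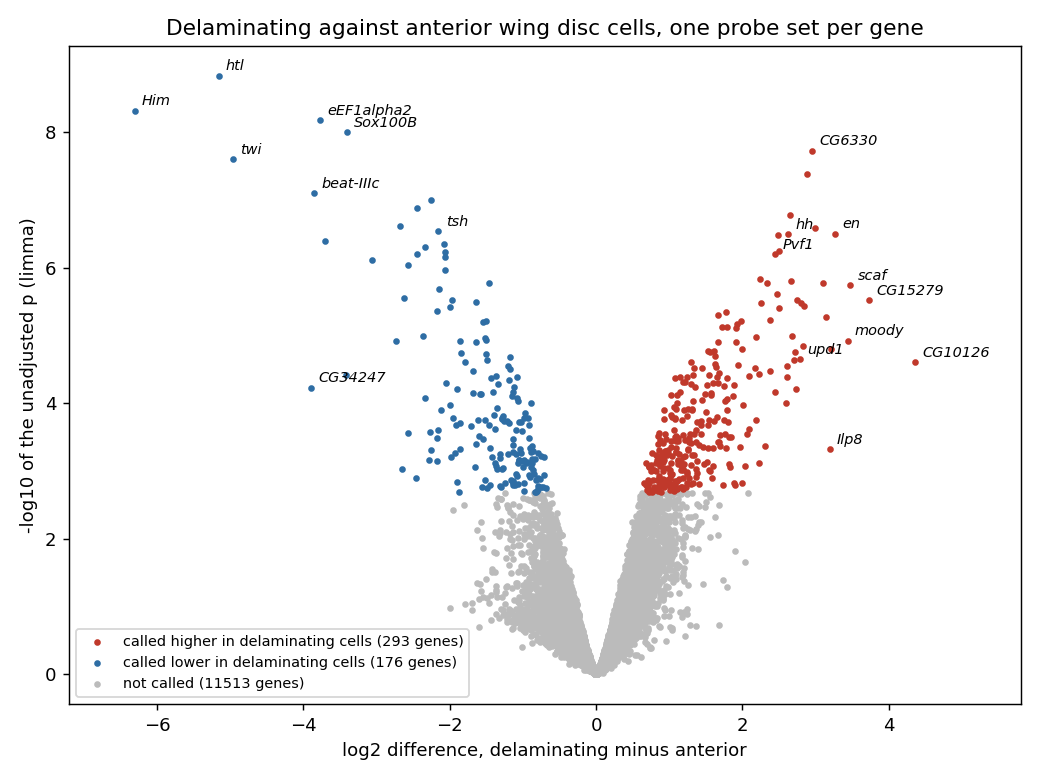
Each point is 1 of 11982 genes, with its log2 difference (delaminating minus anterior) on the horizontal axis and the negative log10 of the unadjusted limma p on the vertical axis; red marks the 293 genes called higher, blue the 176 called lower and grey the rest. Him, htl and twi lie farthest to the lower side, at differences of -6.30, -5.16 and -4.96, and CG10126, at 4.36, lies farthest to the higher side.

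Among the 15 called genes with the largest increase, CG10126 stood first. It had 10.52, 11.64 and 10.35 in delaminating cells, 5.08, 5.56 and 6.20 in posterior cells, and 7.10, 5.04 and 7.29 in anterior cells, a 20.5-fold higher level (4.36 ± 0.58 SE, limma adjusted p = 0.00303). CG15279 was nearly the same on the 3 delaminating arrays, at 11.61, 11.73 and 11.56, against 6.93, 7.79 and 8.40 in posterior and 8.43, 7.16 and 8.11 in anterior cells (13.3-fold, adjusted p = 0.000789). For both genes posterior and anterior values overlapped, with posterior minus anterior differences of -0.87 (adjusted p = 0.573) and -0.19 (adjusted p = 0.842). scaf, which encodes a serine protease homolog and is induced by JNK in several fly tissues, had 10.02, 11.32 and 10.14 in delaminating cells, 7.42, 7.44 and 7.50 in posterior cells, and 7.25, 6.49 and 7.34 in anterior cells (11.1-fold, adjusted p = 0.000556). Its lowest delaminating value lay over 2 log2 units above the highest value elsewhere.

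moody, a G protein-coupled receptor gene known from the glia of the blood-brain barrier, was higher by 3.44, with 9.76, 9.77 and 9.91 in delaminating cells, 7.65, 7.58 and 7.82 in posterior cells, and 7.53, 5.40 and 6.21 in anterior cells (adjusted p = 0.00191). Here the anterior values were uneven, with 2 of 3 under the lower quartile of their array, and the posterior values lay between those of the other groups. wun2, which encodes a lipid phosphate phosphatase that guides migrating germ cells in the embryo, was 7.14-fold higher (10.42, 10.20 and 10.66 in delaminating, 8.25, 7.67 and 6.86 in anterior cells, adjusted p = 0.000887). CG6330 had the smallest SE of the 15, 0.18, at 10.22, 10.18 and 10.29 in delaminating and 7.46, 7.44 and 6.93 in anterior cells (7.75-fold, adjusted p = 5.08e-05). CG17124, flap, CG15021 and CG44085 were between 7.36-fold and 9.27-fold higher, with adjusted p between 7.55e-05 and 0.00225, and CG10527 was higher by 3.14 (adjusted p = 0.00114). A second probe set of CG17124 differed by 2.70 and one of CG44085 by 1.34, both called. With en, Ilp8, GstE6 and vir-1 these genes make up the 15. All but Ilp8 kept their call in the 20 alternative fits.

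The JAK/STAT ligand genes upd1 and upd2 were higher. Of 10 measured genes of the JAK/STAT pathway 3 were called higher and 0 lower, with a list median of 0.27 beside 0.05 over all genes. upd3, hop and Socs36E of this list were not measured. upd1, a ligand gene of the pathway, had 11.24, 10.79 and 11.33 in delaminating cells, 7.53, 8.51 and 9.01 in posterior cells, and 8.85, 8.16 and 7.99 in anterior cells. Posterior and anterior values overlapped and all 3 delaminating values lay above both, a 6.88-fold higher level than in anterior cells (2.78 ± 0.37 SE, adjusted p = 0.00283). upd2, the gene of a second ligand, was 5.45-fold higher, with 8.80, 8.03 and 9.69 in delaminating, 6.91, 6.94 and 6.80 in posterior and 6.40, 6.80 and 5.97 in anterior cells (adjusted p = 0.00563). vir-1, a gene induced through JAK/STAT on viral infection of flies, was 6.94-fold higher, with 9.15, 10.37 and 9.68 in delaminating, 6.83, 6.53 and 6.96 in posterior and 6.77, 7.28 and 6.77 in anterior cells (adjusted p = 0.000827). The receptor and transcription factor genes of the pathway were not called: dome differed by 0.17 (adjusted p = 0.774) and Stat92E by 0.05 (adjusted p = 0.946). The 3 calls were kept in all alternative fits.

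**Figure D2:**
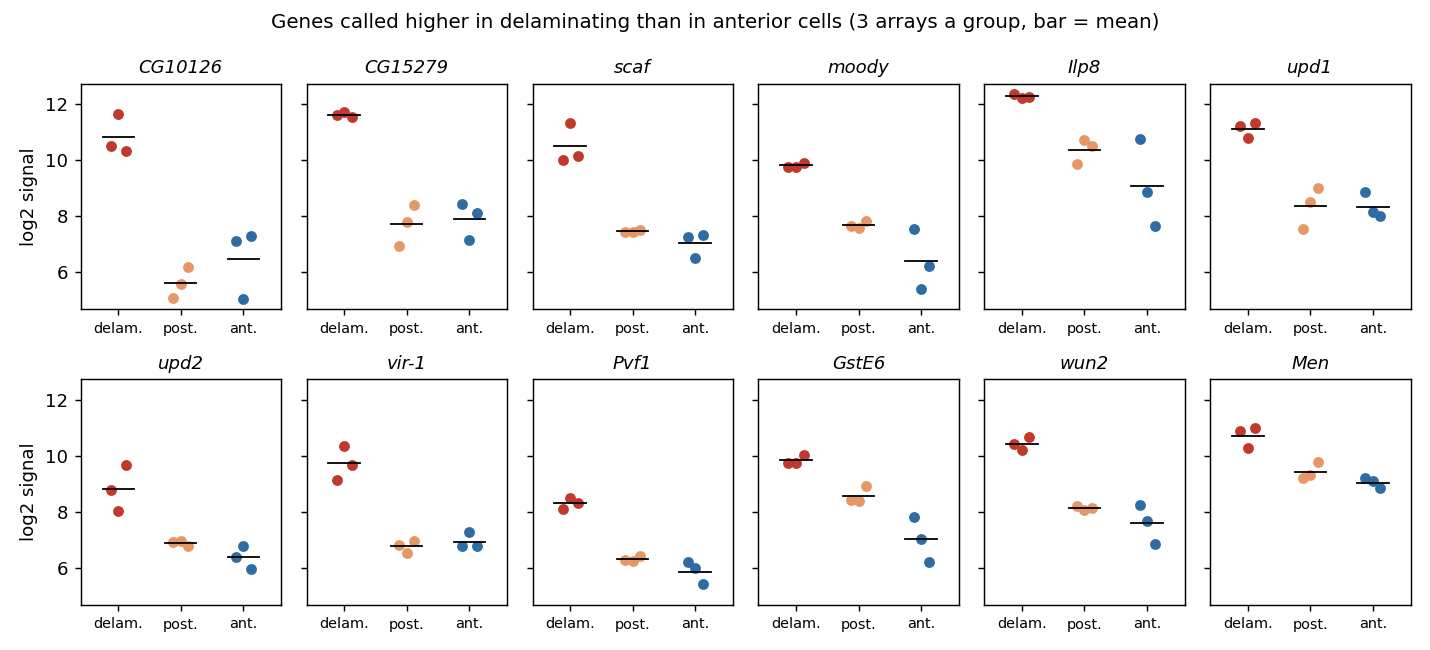
Log2 signal (vertical axis) of 12 called genes on each array in delaminating (red), posterior (orange) and anterior (blue) cells, with a bar at the mean of 3 arrays. For scaf, upd1, upd2 and vir-1 the posterior points lie near the anterior ones, while for moody and GstE6 they lie between the other groups.

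All 3 genes of the PDGF/VEGF-related ligands were called higher, with a list median of 1.76 over 4 measured genes. Pvf1 had 8.12, 8.49 and 8.33 in delaminating cells, 6.27, 6.23 and 6.43 in posterior cells, and 6.19, 5.98 and 5.41 in anterior cells, where it was dim (difference 2.45 ± 0.22 SE, adjusted p = 0.000296). Pvf2, also dim in anterior cells, had 6.99, 8.67 and 7.30 in delaminating, 6.13, 6.70 and 6.82 in posterior and 6.09, 5.50 and 4.70 in anterior cells (adjusted p = 0.0262). Pvf3 was 2.12-fold higher on its brightest probe set (adjusted p = 0.00411), which had 11.10, 10.76 and 10.91 in delaminating, 10.64, 10.64 and 10.70 in posterior and 9.87, 9.73 and 9.91 in anterior cells. Its other 3 probe sets differed by 1.51, which was called, and by 0.07 and -0.05, which were not. Pvr, which encodes the receptor of these ligands, had a difference of 1.30 at adjusted p = 0.0830. Pvf2 lost its call without delaminating 2 (adjusted p = 0.0611), delaminating 3 (0.0659), anterior 2 (0.0717) or anterior 3 (0.0519).

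Of 8 measured JNK target genes 5 were called higher (scaf, Ilp8, Ets21C, puc and Jra), and the list median was 0.97. MMP1 itself is a target of the pathway, so cells sorted on its reporter were selected on the readout of this list. Ilp8 was even on the delaminating arrays, with 12.38, 12.23 and 12.26, against 9.86, 10.71 and 10.51 in posterior cells. Its anterior values were scattered, at 10.77, 8.88 and 7.64, and the 9.13-fold higher level had an adjusted p of 0.0204. Ets21C, which encodes an Ets transcription factor, was 3.46-fold higher (1.79 ± 0.28 SE, adjusted p = 0.00655), with 10.93, 10.44 and 11.34 in delaminating and 9.48, 9.19 and 8.66 in anterior cells. puc, the phosphatase gene that JNK induces as its own brake, was 2.04-fold higher (adjusted p = 0.0168), and Jra, which encodes fly Jun, 1.87-fold (adjusted p = 0.0217). kay, which encodes Fos, differed by 0.84 (adjusted p = 0.106), Atf3 by -0.77 (adjusted p = 0.0539) and Timp, a metalloproteinase inhibitor gene, by -0.28 (adjusted p = 0.603).

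Of 13 measured genes of the JNK cascade above these targets, grnd, which encodes the receptor Grindelwald of the fly TNF Eiger, was the 1 called, at 9.54, 9.55 and 9.81 in delaminating, 9.04, 9.40 and 9.05 in posterior and 8.50, 8.63 and 7.65 in anterior cells (2.59-fold higher, adjusted p = 0.0174). egr, which encodes Eiger, differed by -0.74 (adjusted p = 0.120) and wgn, the gene of the other Eiger receptor, by -0.25 (adjusted p = 0.610). Of 5 genes of the p38 pathway 0 were called by limma, with 1 at an unadjusted p under 0.05 (p38a, difference 0.62, adjusted p = 0.152). Ilp8 lost its call without any of delaminating 1, 2 or 3 or anterior 2 (adjusted p from 0.0678 to 0.0758), puc without delaminating 1 (0.0556), delaminating 3 (0.0765) or anterior 2 (0.0618), grnd without delaminating 1 (0.0572) or delaminating 3 (0.0784), and Jra without delaminating 1 (0.0556), 2 (0.0622) or 3 (0.0905) or anterior 1 (0.0626). scaf and Ets21C kept theirs.

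Besides Ilp8, the list of insulin-related and systemic signals held ImpL2, whose secreted product binds insulin-like peptides. ImpL2 had 11.61, 11.14 and 11.83 in delaminating, a mean of 10.43 in posterior and 10.21, 10.25 and 9.81 in anterior cells, a 2.70-fold higher level (adjusted p = 0.0147). Sdr, which encodes a secreted decoy of the insulin receptor, was lower and dim in delaminating cells, at 5.53, 6.21 and 6.62 against 7.41, 7.66 and 7.04 in anterior cells (adjusted p = 0.0413). Of 6 imaginal disc growth factor genes, Idgf4 was called, 3.15-fold higher at 11.68, 11.54 and 12.11 in delaminating, 11.23, 11.16 and 11.49 in posterior and 10.53, 10.07 and 9.76 in anterior cells (adjusted p = 0.00411). ImpL2 lost its call without delaminating 1 (0.0619) or delaminating 3 (0.0690). Sdr lost its call without any of delaminating 1 or 2, the 3 posterior arrays, anterior 1 or anterior 2, with adjusted p from 0.0623 to 0.133.

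The FGF genes went both ways, with 1 of 6 called higher and 3 lower, htl among them. bnl, the ligand gene of the tracheal receptor Breathless, was 2.28-fold higher, at 8.43, 8.84 and 9.04 in delaminating and 7.22, 7.35 and 8.17 in anterior cells (adjusted p = 0.0371). Its second probe set differed by 2.74 (adjusted p = 0.00188) and a further one by 1.36 (adjusted p = 0.0822). ths, a ligand gene of the mesodermal receptor Heartless, was 2.19-fold lower, with 7.81, 7.37 and 8.16 in delaminating, 7.46, 7.30 and 7.47 in posterior and 8.98, 9.31 and 8.45 in anterior cells (adjusted p = 0.0402). sty, the feedback inhibitor gene of FGF and EGF receptor signalling, was 1.89-fold lower on its brighter probe set (adjusted p = 0.0117), while its other one differed by -0.78 and was not called (adjusted p = 0.150). kek1, which encodes an EGF receptor inhibitor, was 1.68-fold lower (adjusted p = 0.0231), and these were the 2 genes called of 10 in the EGFR list. bnl lost its call without any of the 3 delaminating or 3 posterior arrays or anterior 1 or 2 (adjusted p from 0.0548 to 0.141), and after quantile normalization (0.0783) or median centring (0.0775). ths lost its call without the same arrays (0.0507 to 0.126), sty without delaminating 1 (0.0616) or 3 (0.0595), and kek1 without any delaminating array, posterior 1, anterior 1 or anterior 2 (0.0507 to 0.0883).

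Some genes of cell death and of the response to DNA breaks were higher. Of 11 measured apoptosis genes 2 were called higher (0 without delaminating 2), and the list median was 0.45. Dronc, which encodes the initiator caspase that acts above the step p35 blocks, was 2.17-fold higher, at 9.52, 10.13 and 9.63 in delaminating, 8.78, 9.23 and 8.66 in posterior and 8.89, 8.45 and 8.60 in anterior cells (adjusted p = 0.0253). skl, a gene for an antagonist of the inhibitors of apoptosis, was called at 5.54, 5.83 and 5.60 against 4.67, 4.93 and 4.93 in anterior cells, dim in both groups (adjusted p = 0.0225). Of 13 genes of the DNA damage response 3 were called higher (2.45% of all genes) and 12 lay above 0 (6730 of all 11982 genes). The list median was 0.41. Corp, a target and antagonist of p53, was 3.11-fold higher with 8.98, 8.41 and 8.83 in delaminating, 7.68, 7.70 and 7.92 in posterior and 7.42, 7.17 and 6.72 in anterior cells (adjusted p = 0.00340). nbs, of the complex that senses double-strand breaks, was 2.18-fold higher (adjusted p = 0.0168) and Ku80, of the end-joining pathway, higher by 1.19 (adjusted p = 0.0466). p53 itself differed by 0.52 (adjusted p = 0.391).

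Corp kept its call in all alternative fits. Dronc lost its call without delaminating 2 (0.0753), delaminating 3 (0.0722), posterior 1 (0.0503) or anterior 2 (0.0912), skl without any delaminating array, anterior 1 or anterior 2 (0.0572 to 0.0732), nbs without delaminating 1 (0.0616), delaminating 3 (0.0765) or anterior 1 (0.0532), and Ku80 without any array but anterior 2 (0.0701 to 0.159).

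Glutathione transferases are enzymes that conjugate glutathione to reactive compounds. Of 34 measured genes 6 were called higher and 0 lower (2.45% and 1.47% of all genes), with a median of 0.45. GstE6 led at 7.07-fold, with 9.74, 9.76 and 10.02 in delaminating, 8.43, 8.37 and 8.94 in posterior and 7.83, 7.03 and 6.20 in anterior cells (adjusted p = 0.00212). GstE1 had 11.67, 11.07 and 11.99 in delaminating, 9.97, 10.31 and 10.52 in posterior and 9.97, 9.93 and 9.21 in anterior cells (3.66-fold, adjusted p = 0.00611). GstE7 was 2.85-fold higher (adjusted p = 0.00487), GstD3 2.59-fold (0.0293), GstE3 2.58-fold (0.0360) and GstE9 2.03-fold (0.0195). A second probe set of GstE9 differed by 1.02 at adjusted p = 0.0778. GstD1, with 13.14, 12.84 and 13.28 in delaminating and 12.75, 12.76 and 12.56 in anterior cells, was not called (difference 0.39, adjusted p = 0.275). Genes of the GstE cluster are similar in sequence, and how far their probe sets distinguish them was not tested.

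Of 12 other redox genes 1 was called, Men, which encodes a malic enzyme that makes NADPH, at 10.89, 10.29 and 10.99 in delaminating, 9.22, 9.32 and 9.78 in posterior and 9.21, 9.09 and 8.84 in anterior cells (3.19-fold higher, adjusted p = 0.00388). GstE6, GstE1, GstE7 and Men kept their calls in all alternative fits. GstD3 lost its call without delaminating 1 (0.102), delaminating 3 (0.115), posterior 1 (0.0587) or anterior 2 (0.0678), and GstE9 without delaminating 2 (0.0623), delaminating 3 (0.0788), anterior 1 (0.0593) or anterior 2 (0.0530). GstE3 lost its call without delaminating 1 or 3, any posterior array, anterior 2 or anterior 3 (0.0550 to 0.127).

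Some genes of membrane scission were higher. The ESCRT machinery cuts membrane necks in endosome sorting, cytokinesis and membrane repair. Of its 16 measured genes 5 were called higher (2.45% of all genes) and all 16 lay above 0 (6730 of all 11982 genes). The list median was 0.86 (0.59 without anterior 3). Vps60 had 10.89, 11.21 and 10.98 in delaminating, 9.84, 9.65 and 9.82 in posterior and 9.90, 9.95 and 9.08 in anterior cells, a 2.61-fold higher level (adjusted p = 0.0111). shrb, the core filament subunit of ESCRT-III, was 2.30-fold higher (adjusted p = 0.0267), TSG101 of ESCRT-I 1.97-fold (0.0226), Vps2 1.82-fold (0.0280) and Vps4, the ATPase that takes the filaments apart, 1.81-fold (0.0144). For Vps4, delaminating values were 10.43, 10.74 and 10.57, posterior values 9.72, 9.87 and 9.84, and anterior values 9.81, 9.64 and 9.72. Vps4, Vps60 and Vps2 posterior values overlapped the anterior ones. Without delaminating 2 the list had 2 called genes.

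Vps60 kept its call whichever single array was left out and lost it in the fit to the 6 compared arrays alone (0.0582). In that fit Vps4, TSG101 and shrb lost theirs too. Vps4 lost its call without delaminating 3 (0.0589) or anterior 2 (0.0577), TSG101 without any delaminating array or anterior 2 (0.0594 to 0.0863), and shrb without any delaminating array, posterior 1 or anterior 2 (0.0502 to 0.0934). Vps2 lost its call without delaminating 2 or 3, any posterior array, anterior 1 or anterior 2 (0.0526 to 0.100).

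In the integrin adhesion list, 4 of 15 genes were called higher (2.45% of all genes) and 14 lay above 0 (6730 of all 11982 genes). The list median was 0.71. Zasp52, a PDZ and LIM domain protein of integrin attachment sites, was 3.06-fold higher, at 10.99, 11.21 and 10.97 in delaminating, 10.06, 10.32 and 10.20 in posterior and 9.83, 9.78 and 8.73 in anterior cells (adjusted p = 0.0108). The adaptor genes Vinc (vinculin, 2.01-fold, adjusted p = 0.0303), Ilk (integrin-linked kinase, 1.97-fold, 0.0220) and Pax (paxillin, 1.66-fold, 0.0277) were also higher. Pax had 11.37, 11.33 and 11.59 in delaminating cells, and its posterior values of 10.30, 10.29 and 10.47 lay below its anterior values of 10.71, 10.77 and 10.62. Of 12 actomyosin genes dia, which encodes a formin that extends actin filaments, was 3.17-fold higher (7.91, 8.62 and 8.03 in delaminating, 6.65, 6.70 and 6.21 in anterior cells, adjusted p = 0.00471) and cpa, an actin capping protein gene, 2.37-fold (adjusted p = 0.0336). Of 10 genes of the Arp2/3 complex and its activators, Arpc1 was 1.80-fold higher (adjusted p = 0.0245), and Arpc3B was called with 6.55, 6.70 and 6.52 in delaminating and 5.56, 5.67 and 5.77 in anterior cells, where it was dim (adjusted p = 0.0106).

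dia, Zasp52 and Arpc3B kept their calls whichever single array was left out, and Zasp52 (0.0565) and Arpc3B (0.0550) lost theirs in the fit to the 6 compared arrays alone. In that fit Vinc, Ilk, Pax, cpa and Arpc1 lost theirs too. Vinc lost its call without delaminating 1 or 3, any posterior array or anterior 2 (0.0507 to 0.120), Ilk without delaminating 2 (0.0674), delaminating 3 (0.0764), anterior 1 (0.0602) or anterior 2 (0.0548), Pax without delaminating 1 or 3, any posterior array, anterior 1 or anterior 2 (0.0517 to 0.115), cpa without any delaminating array, posterior 1 or 3, or anterior 2 (0.0571 to 0.116), and Arpc1 without any delaminating array, posterior 1 or anterior 1 (0.0507 to 0.0710).

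Among junction genes, calls fell in the septate junction list alone. All 16 measured septate junction genes lay above 0 (6730 of all 11982 genes), with a median of 0.47 (0.27 without anterior 3). Without anterior 3 not all lay above 0, with Nrx-IV at -0.03. Of the 16, moody and Lac were called (2.45% of all genes were called higher). Lac, which encodes an immunoglobulin protein of septate junctions, had 11.74, 11.88 and 11.72 in delaminating, 11.48, 11.66 and 11.58 in posterior and 11.10, 11.08 and 10.67 in anterior cells (1.78-fold, adjusted p = 0.0250). Of 13 adherens junction and polarity genes limma called 0, with 5 higher and 0 lower at an unadjusted p under 0.05 (10.8% and 5.77% of all genes). The median of this list was 0.44, and 0.14 without anterior 3. shg, the E-cadherin gene, differed by 0.49 (adjusted p = 0.130) and crb, an apical determinant, by 0.73 (adjusted p = 0.0710). Lac lost its call without any delaminating array, posterior 1, posterior 3 or anterior 2 (0.0507 to 0.0867).

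Of 17 chitin matrix genes 2 were called higher. Gasp, a chitin-binding protein gene of the trachea and other cuticles, was 4.27-fold higher, with 10.27, 10.22 and 10.62 in delaminating, 10.03, 10.11 and 9.85 in posterior and a scattered 9.23, 8.16 and 7.44 in anterior cells (adjusted p = 0.0130). serp, which encodes a chitin deacetylase, was 1.85-fold higher (adjusted p = 0.0250). Of 102 genes for cuticle proteins, mostly of the Cpr family, 2 were called higher and 1 lower, with a median of -0.04. Over all genes 2.45% were called higher and 1.47% lower. Cpr64Ac (2.91-fold, adjusted p = 0.0106) and TwdlE (2.66-fold, adjusted p = 0.0187) were higher, and Cpr51A was 1.64-fold lower (adjusted p = 0.0235). Among 21 ecdysone genes Cyp18a1, which encodes the P450 that inactivates the moulting hormone, had 7.97, 7.68 and 8.66 in delaminating, 5.81, 6.20 and 7.02 in posterior and 5.43, 5.72 and 4.99 in anterior cells, where it was dim (difference 2.72, adjusted p = 0.00239). Its other probe set differed by 3.18 (adjusted p = 0.00159). The ecdysone-induced genes ImpL1 and Eip78C were 2.20-fold (adjusted p = 0.0188) and 1.98-fold (adjusted p = 0.0413) lower, and without anterior 3 this list had 5 genes lower and 1 higher.

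Cyp18a1 and Cpr64Ac kept their calls in all alternative fits. Gasp lost its call without delaminating 3 (0.0644), ImpL1 without delaminating 1 (0.0545), delaminating 3 (0.0635) or anterior 2 (0.0644), TwdlE without delaminating 2 (0.0674), delaminating 3 (0.0690) or anterior 1 (0.0556), and serp without delaminating 1 or 3, posterior 1 or 3, or anterior 2 (0.0501 to 0.103). Eip78C lost its call without any array but anterior 3 (0.0676 to 0.123), and Cpr51A without any delaminating array, posterior 1, anterior 1 or anterior 2 (0.0507 to 0.106).

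**Figure D3:**
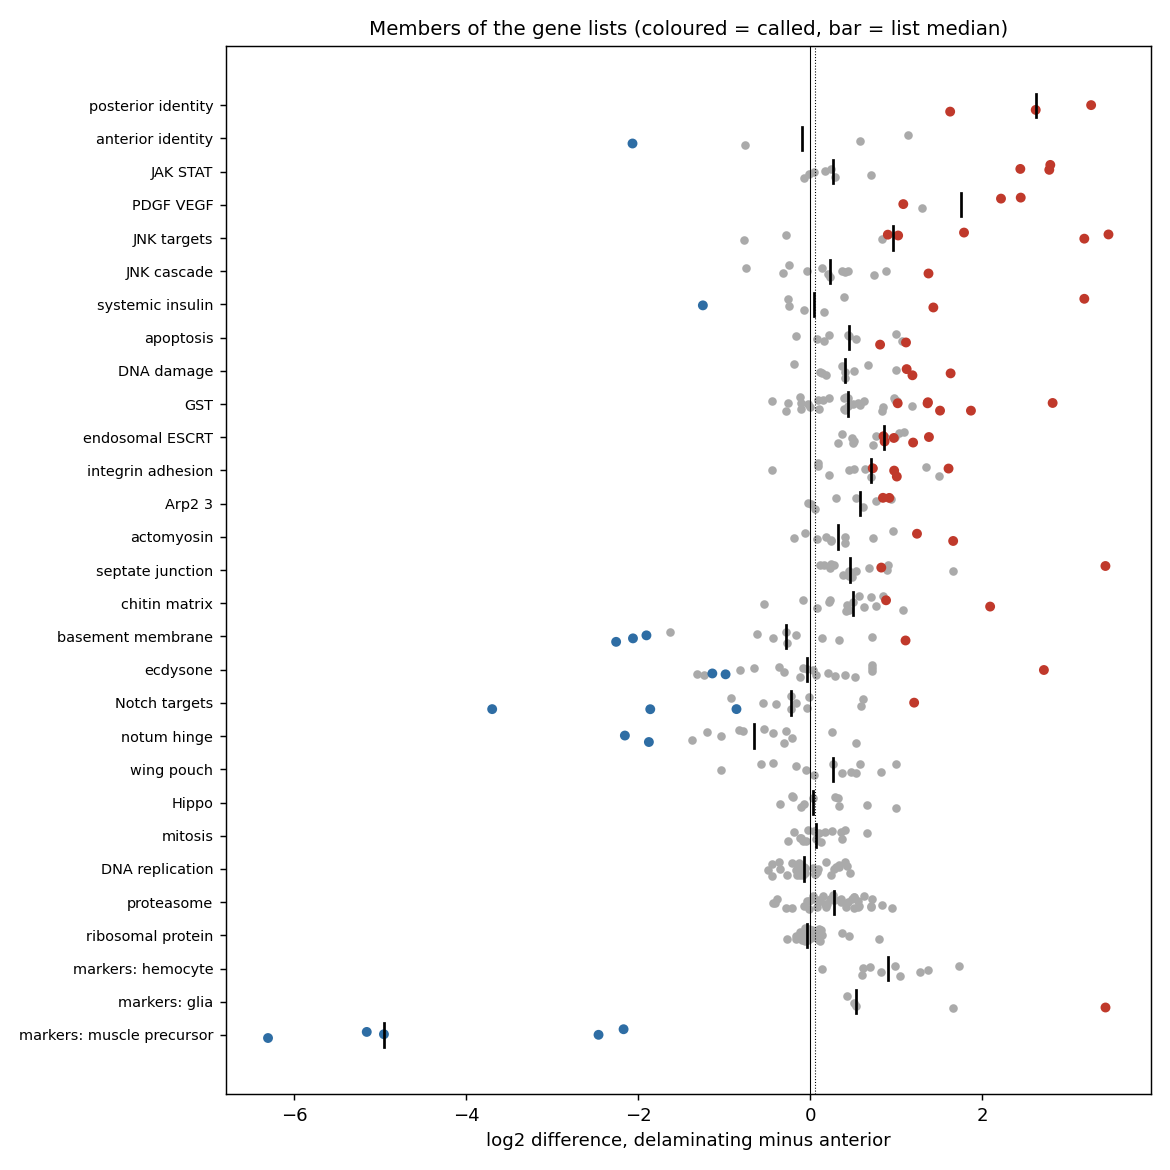
Log2 difference (delaminating minus anterior, horizontal axis) of each measured member of the gene lists named at the rows, with called genes in red (higher) or blue (lower), other genes in grey, a bar at each list's median and a dotted line at the median of all genes, 0.05. The 16 ESCRT genes all lie to the right of 0, and the 5 muscle precursor markers lie far to the left, with a median of -4.96.

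Muscle precursor markers fell, with 5 of 5 measured genes called lower. Him, which keeps these precursors undifferentiated, had 6.04, 5.79 and 5.09 in delaminating cells, where it was dim, 6.87, 7.97 and 7.93 in posterior cells, and 11.85, 12.16 and 11.83 in anterior cells (difference -6.30 ± 0.33 SE, limma adjusted p = 3.01e-05). htl, the gene of the FGF receptor Heartless, was dim at 3.82, 3.78 and 4.04, against 3.96, 4.85 and 4.80 in posterior and 8.94, 9.17 and 8.99 in anterior cells (adjusted p = 2.0e-05). twi, the mesodermal transcription factor gene, was 31.0-fold lower, with 7.56, 6.40 and 6.66 in delaminating, 7.19, 7.68 and 7.79 in posterior and 11.50, 11.91 and 12.08 in anterior cells (adjusted p = 5.58e-05). hbs, a gene for an adhesion molecule of myoblast fusion, was 4.50-fold lower, with 9.45, 10.18 and 9.21 in delaminating and 11.69, 11.94 and 11.72 in anterior cells (adjusted p = 0.000984). Unlike these, zfh1, a zinc finger gene, was uneven in delaminating cells, at 7.26, 9.47 and 7.37 beside 10.30, 10.80 and 10.38 in anterior cells (5.50-fold lower, adjusted p = 0.0369).

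For Him, htl and twi the delaminating and anterior values were over 3 log2 units apart at their closest, and posterior values lay nearer to the delaminating ones. For Him the posterior values all lay above the delaminating ones (delaminating minus posterior -1.95, adjusted p = 0.0412). The mean log2 signal of the 5 markers was 6.47 to 7.12 in delaminating, 7.02 to 7.77 in posterior and 10.86 to 11.20 in anterior cells. In bulk samples fewer cells of a type and less RNA per cell cannot be told apart. zfh1, which hemocytes also express, had an adjusted p of 0.00306 without delaminating 2, and lost its call without delaminating 1 (0.131), delaminating 3 (0.140), posterior 1 (0.0619), posterior 3 (0.0601), anterior 1 (0.0682), anterior 2 (0.112) or anterior 3 (0.0576).

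**Figure D4:**
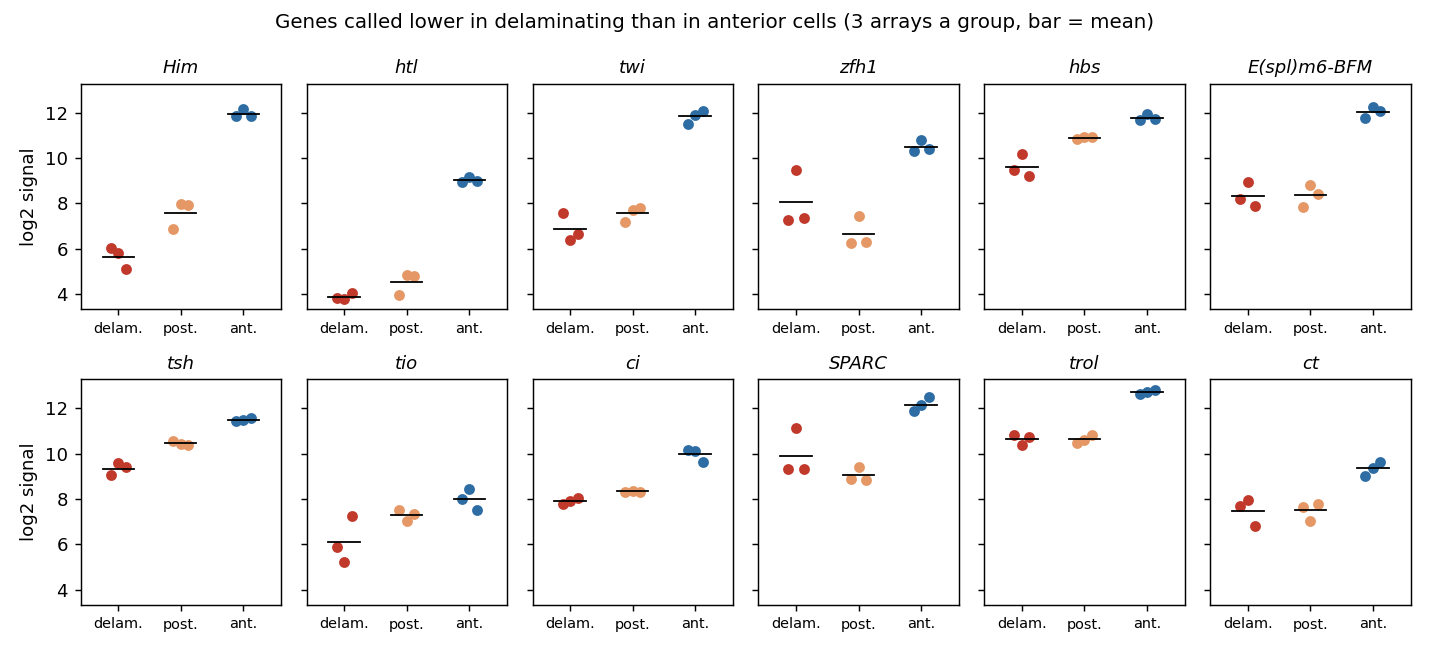
Log2 signal (vertical axis) of 12 genes called lower, on each array in delaminating (red), posterior (orange) and anterior (blue) cells, with a bar at the mean of 3 arrays. For htl, twi and trol posterior points lie near the delaminating ones, and for Him, tsh and hbs they lie between the other groups.

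Of the other genes with large falls, eEF1alpha2, a translation elongation factor gene, was 13.7-fold lower, at 8.91, 8.38 and 8.44 in delaminating, 8.88, 9.28 and 9.18 in posterior and 12.27, 12.59 and 12.20 in anterior cells (adjusted p = 3.01e-05). beat-IIIc, of a family of immunoglobulin proteins in axon guidance, was 14.5-fold lower (adjusted p = 0.000109), and its other probe set differed by -4.34. CadN, which encodes N-cadherin, was 8.32-fold lower at 6.41, 6.52 and 6.75 in delaminating, 6.23, 7.27 and 7.10 in posterior and 9.31, 9.69 and 9.86 in anterior cells (adjusted p = 0.000311). rst, whose product pairs with that of hbs in cell recognition, was 6.66-fold lower (adjusted p = 0.00191). CG34247 was 14.8-fold lower, with 7.11, 7.97 and 6.17 in delaminating, 11.14, 9.93 and 8.72 in posterior and 11.18, 10.76 and 10.99 in anterior cells (adjusted p = 0.00513). Its posterior values overlapped the anterior ones, while those of eEF1alpha2, CadN and beat-IIIc did not.

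The transcription factor genes Hesr and Sox100B and the genes CG34169, CG32461, beat-IIb and Gr36b were dim in delaminating cells. Sox100B had 3.84, 3.92 and 3.75 there, 3.85, 3.80 and 3.79 in posterior cells and 7.64, 7.13 and 6.96 in anterior cells (adjusted p = 3.40e-05), so that delaminating and posterior values coincided. Anterior means of these 6 genes were not dim, and their adjusted p lay between 3.40e-05 and 0.0294. Of the 15 largest falls, CG32461 alone lost its call when an array was left out, without any delaminating or posterior array or anterior 2 (0.0536 to 0.107); its anterior values were 6.03, 7.30 and 8.96.

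Basement membrane genes went in both directions. Of 13 measured, 3 were lower and 1 higher, with a median of -0.28. trol, which encodes perlecan, was 4.17-fold lower on its brightest probe set, at 10.84, 10.37 and 10.75 in delaminating, 10.49, 10.59 and 10.82 in posterior and 12.62, 12.70 and 12.83 in anterior cells (adjusted p = 0.000296). Of its 7 other probe sets 5 were also called lower, with differences from -1.26 to -3.74. SPARC, a collagen-binding glycoprotein gene, was 4.77-fold lower (adjusted p = 0.0206), with 9.32, 11.12 and 9.30 in delaminating, 8.90, 9.40 and 8.82 in posterior and 11.88, 12.15 and 12.48 in anterior cells. vkg, a collagen IV chain gene, was 3.74-fold lower (adjusted p = 0.0407) at 9.44, 11.14 and 9.24 in delaminating, 8.87, 9.52 and 8.99 in posterior and 11.63, 11.92 and 11.97 in anterior cells. For SPARC and vkg the second delaminating array was the highest of its group. Col4a1, the other collagen IV chain gene, had 10.92, 12.52 and 10.16 in delaminating and 12.65, 12.88 and 12.94 in anterior cells (difference -1.63, adjusted p = 0.107, and 0.00434 without delaminating 2).

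Hemocytes and fat body are known sources of these matrix proteins. Among the 3 delaminating arrays, delaminating 2 had the highest value for 11 of 13 genes of this list. The part of hemocyte RNA in these values was not tested. Without delaminating 2 the list had 5 genes lower and 1 higher. Against the direction of the collagens, Mmp2, which encodes the second fly matrix metalloproteinase, was 2.16-fold higher at 9.65, 9.80 and 9.62 in delaminating, a mean of 9.03 in posterior and 8.73, 8.71 and 8.29 in anterior cells (adjusted p = 0.00589). Its other probe set differed by -0.03 (adjusted p = 0.950), and the mean of both had an adjusted p of 0.106. SPARC lost its call without delaminating 1 (0.0839), delaminating 3 (0.0858) or anterior 2 (0.0617), and vkg without any array but delaminating 2 (0.0605 to 0.150).

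Of genes of the proximal disc, tsh and tio were called lower. Of 14 notum and hinge genes 2 were called lower (1.47% of all genes) and 12 lay below 0 (6730 of all 11982 genes lay above 0). The list median was -0.66, and without anterior 3 the list had 6 lower. tsh, a zinc finger gene of the proximal disc, had 9.04, 9.57 and 9.43 in delaminating, 10.55, 10.42 and 10.39 in posterior and 11.44, 11.50 and 11.56 in anterior cells, in 3 groups that did not overlap (4.45-fold lower, adjusted p = 0.000203). Its paralog tio was dim in delaminating cells at 5.87, 5.21 and 7.25, against 8.00, 8.42 and 7.53 in anterior cells (adjusted p = 0.0497). Of 13 wing pouch genes limma called 0, with 3 higher and 2 lower at an unadjusted p under 0.05 (10.8% and 5.77% of all genes). Without anterior 3 the wing pouch list had 1 gene called higher and 2 lower. The pouch selector gene vg had 11.29, 11.22 and 11.29 in delaminating and 11.39, 11.34 and 11.20 in anterior cells (difference -0.04, adjusted p = 0.915). tio lost its call without delaminating 1 or 2, any posterior array, anterior 1 or anterior 2 (0.0789 to 0.160).

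Notch target genes included 1 of the 15 largest falls. E(spl)m6-BFM, of the Bearded family in the Enhancer of split complex, was 13.0-fold lower, at 8.19, 8.92 and 7.89 in delaminating, 7.85, 8.79 and 8.42 in posterior and 11.75, 12.26 and 12.08 in anterior cells (adjusted p = 0.000234). Other measured genes of the Enhancer of split complex were not called, with differences from -0.92 to -0.02. ct, which encodes a homeodomain protein of the wing margin and of muscle precursors, was 3.63-fold lower (adjusted p = 0.0112, with other probe sets at -1.47, called, and -0.99, not called), edl 1.81-fold lower (adjusted p = 0.0302), and Tom, another Bearded family gene, 2.32-fold higher at 11.38, 11.44 and 11.44 in delaminating, 11.20, 11.28 and 11.25 in posterior and 10.42, 10.33 and 9.87 in anterior cells (adjusted p = 0.00457). In all 1 of 14 genes was higher and 3 were lower. Poxn, a Pax gene and the 1 of 13 proneural genes called higher, had 8.70, 7.78 and 8.52 in delaminating, 8.51, 8.95 and 8.67 in posterior and 7.24, 6.25 and 6.42 in anterior cells (difference 1.70, adjusted p = 0.0150). Of 17 genes of BMP and activin signalling Sara, an adaptor gene of the pathway, was 3.29-fold higher (adjusted p = 0.00141). edl lost its call without delaminating 1 or 3, any posterior array, anterior 1 or anterior 2 (0.0538 to 0.122), and Poxn without delaminating 1 (0.0664), delaminating 3 (0.0701) or anterior 2 (0.0554).

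Outside the lists of cell type markers, limma called 0 genes in 19 lists. Among them were signalling and patterning lists and lists of growth and housekeeping machinery. Together the 19 lists held 397 genes, of which 61 were higher and 8 lower at an unadjusted p under 0.05, where 10.8% and 5.77% of all genes were. The list medians lay between -0.53 for 4 Hox genes and 0.45 for 8 genes of cell competition and the integrated stress response. The median was 0.07 for 17 mitosis genes, -0.07 for 32 DNA replication genes, -0.04 for 41 cytoplasmic ribosomal protein genes and 0.27 for 40 proteasome genes, of which 14 were higher at an unadjusted p under 0.05 (10.8% of all genes). Other such lists were mitochondrial ribosomal proteins (69 genes, median 0.23), oxidative phosphorylation (71 genes, 0.15), the nucleolus (20 genes, 0.42), the CCT chaperonin (8 genes, 0.28), heat shock chaperones (9 genes, 0.0055), ER stress (15 genes, 0.27), glycolysis (11 genes, 0.09), dosage compensation (10 genes, 0.02), the Hippo pathway (11 genes, 0.03) and Wnt signalling (4 genes, 0.16). Without anterior 3 the median was 0.01 for mitochondrial ribosomal proteins, 0.03 for oxidative phosphorylation and 0.18 for the nucleolus. In that fit the Hippo and Wnt lists had 1 called gene each. Without delaminating 2 the lists of oxidative phosphorylation and of cell competition had 1 called gene each. Some of these lists were measured only in part. Of 20 listed heat shock genes 9 were measured, without Hsp22, Hsp23, Hsp83 or Hsp70Aa, among others. Of 15 listed Wnt genes 4 were measured, without wg. Ldh and PyK of glycolysis and roX1 and roX2 of dosage compensation were not matched to a probe set with 1 symbol either. Of 21 autophagy genes Atg16 was called (1.98-fold higher, adjusted p = 0.0428), and of 17 immune genes pirk, a brake of the Imd pathway (2.23-fold higher, adjusted p = 0.0303). Atg16 lost its call without any array but anterior 1 (0.0585 to 0.133), and pirk without any array but delaminating 3 (0.0553 to 0.107).

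Antp, the Hox gene of the wing segment, was not called on its brightest probe set (difference -0.47, adjusted p = 0.166), while its other 2 probe sets were called lower (differences -1.02 at adjusted p = 0.0153 and -1.26 at adjusted p = 0.0199).

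Markers of other cell types were read on each array. The mean log2 signal of 10 hemocyte markers was 7.41, 9.76 and 7.28 in delaminating, 7.12, 7.51 and 6.33 in posterior and 7.04, 7.82 and 6.79 in anterior cells. Hml, the hemolectin gene, was also highest on delaminating 2, with 8.44, 10.39 and 7.52 in delaminating and 8.06, 9.51 and 6.95 in anterior cells. By limma 0 of the 10 were called, with 2 higher at an unadjusted p under 0.05 (10.8% of all genes). The median of 0.91 was 0.10 without delaminating 2. Of 5 glia markers 5 lay above 0 (6730 of all 11982 genes) and 4 were higher at an unadjusted p under 0.05 (10.8% of all genes). For 3 of the 5 the groups did not overlap, with delaminating values above (13.2% of all genes). Of the 5, moody was the 1 called (2 were called without anterior 3). The mean log2 signal of the 5 glia markers was 8.07 to 8.20 in delaminating, 7.48 to 7.56 in posterior and 6.30 to 7.27 in anterior cells. repo, which defines glia, was dim in every group at 5.75, 5.10 and 5.53 in delaminating and 5.11, 4.99 and 4.98 in anterior cells. Of 3 trachea markers Gasp was called, and btl, the tracheal FGF receptor gene, differed by -0.04 (adjusted p = 0.948). By limma 0 of 4 neuron markers and 0 of 3 fat body markers were called, with 0 neuron genes and 1 fat body gene, lower, at an unadjusted p under 0.05.

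**Figure D5:**
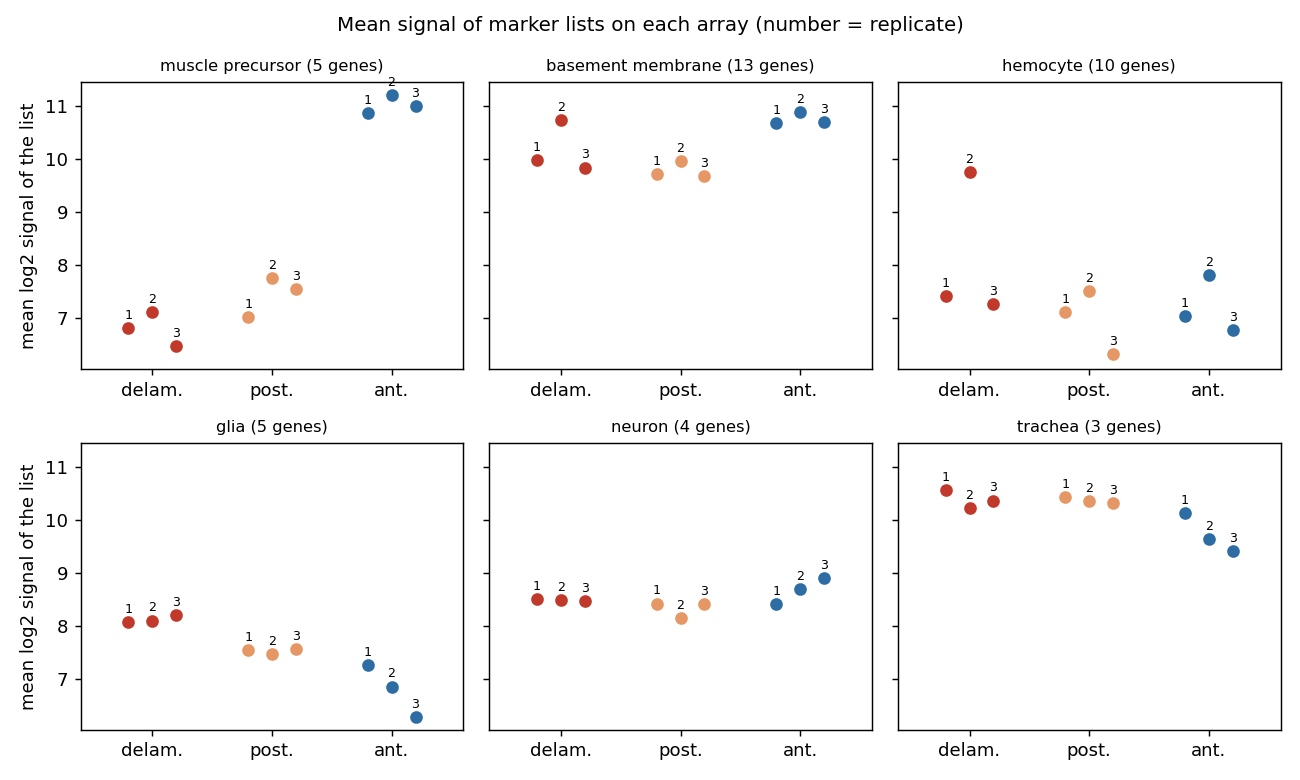
Mean log2 signal (vertical axis) of 6 marker lists on each array (points numbered by replicate) in delaminating, posterior and anterior cells. Delaminating 2 stands at 9.76 in the hemocyte list, where the other 8 arrays lie between 6.33 and 7.82, and the muscle precursor list lies at 10.86 or more on the anterior arrays only.

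By chromosome arm, the share of genes called higher was 2.19% on X, 2.54% on 2L, 2.84% on 2R, 2.39% on 3L and 2.32% on 3R, and the share called lower was 1.39%, 1.68%, 1.48%, 1.71% and 1.04% on the same arms. On chromosome 4, which held 65 measured genes, 1 was higher (unc-13, 2.28-fold, adjusted p = 0.0299) and 5 were lower, which is 7.69%. The lower genes were ci, CG1674 (4.44-fold lower), CG31999 (4.50-fold lower), Sox102F (2.70-fold lower) and Cadps (2.42-fold lower), and they kept their calls without anterior 3 and without delaminating 2. CG31999 lost its call without delaminating 1 (0.0535), delaminating 3 (0.0742) or anterior 2 (0.0578), and Cadps without delaminating 3 (0.0520) or with the mean of its probe sets (0.236). unc-13 lost its call without any delaminating or posterior array or anterior 2 (0.0535 to 0.0742).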

How the data were processed

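Sorted wing disc cells were measured in 3 groups of 3 arrays. Per the submitters' processing notes, the authors summarised the arrays with RMA; the deposited log2 signals were not rescaled. The sources used here give neither the RMA version nor the genome build. RMA's quantile step assumes similar distributions across arrays. The 183 control probe sets, 402 with several gene symbols and 4720 with none were left out. Symbols were updated through RefSeq (GCF_000001215.4), which matched 11894 of 11982 genes, and a gene was represented by its probe set with the highest mean over 9 arrays.

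limma 3.58.1 in R 4.3.3 was fitted with a mean per group to all 9 arrays, for delaminating minus anterior. The moderated test was two-sided, with Benjamini-Hochberg adjustment over 13647 probe sets, and calls were made at an adjusted p under 0.05. SE is the moderated standard error, and folds are powers of 2 of log2 differences. The p-values measure the spread between these arrays. The procedure was tested on simulated data.

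Genes named were checks of the labels, the 15 largest changes in each direction among called genes with separate groups, and up to 4 called genes per list, or up to 2 where none was called. Others, among them further called members of a list, the pathway partners egr, wgn, dome, Stat92E, Pvr, kay, p53, vg, Hml and GstD1, and the genes of chromosome 4, were picked with their values in view. The members and the 54 lists were chosen with earlier results of these data known. The labels state no pairing of arrays by replicate number. Correlations of same-numbered delaminating and anterior deviations were 0.10, -0.13 and -0.10, which cannot tell whether same-numbered samples came from the same discs. Alternatives were a replicate block, filters, scalings, probe set rules, variance models, array weights and each array left out.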

Additional observations from a re-analysis of the deposited data

Results flagged for a closer look

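Probe sets with several gene symbols or with none lay outside the comparison by gene. Tested in the same limma model, 57 of them had a called increase and 107 a called decrease in delaminating relative to anterior cells, 164 of 5122 or 3.2%, with log2 differences from -5.13 to 4.27. Their genes are not named here.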

How the results depend on the processing

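Against 561 probe sets called, the number was 2293 with array weights, which gave anterior 3 a weight of 0.11, and 226 with only the 6 arrays compared in the fit, 225 of them among the 561. It lay between 262 and 738 when an array was left out, lowest without delaminating 3 and highest without anterior 3, and was 301 without delaminating 1 and 343 without anterior 2. The other alternatives stayed within 1.5 times. With a replicate block 473 were called, 434 of them among the 561. Same-numbered delaminating and anterior arrays did not deviate together, and outside this fit the numbers were used only to name the arrays. Leaving out anterior 3 and delaminating 2 together, chosen after seeing the data, gave 769 calls. With it Axn (-0.11), Hsf (-0.041), Sxl (-0.0069) and Lsp2 (0.080) changed sign, as did Lsp2 with array weights (0.40), and none of these was called; the cause was not tested. Among 92 called genes named by rule, 50 stayed called in each of the 20 fits that tested them. The median of all probe sets was 0.04, -0.03 after median centring. Precision was limited by 3 arrays per group and, for dim genes, by signal near background.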

Other observations

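The gene families that follow were chosen after values were seen, and their counts are a description. Over all genes 2.45% were called higher and 1.47% lower. Genes that harden and colour the cuticle were among the higher genes. Ddc, which encodes the decarboxylase that makes dopamine, had 10.25, 10.20 and 10.02 in delaminating, 8.55, 9.15 and 9.04 in posterior and 8.01, 8.03 and 6.60 in anterior cells, a 6.11-fold higher level (limma adjusted p = 0.00331). Its neighbour and relative amd was 1.90-fold higher (adjusted p = 0.0442), and in all 2 of 8 tanning genes were called. Of 13 yellow family genes 3 were called higher, among them yellow-e at 5.64-fold (adjusted p = 0.000293) and y at 1.86-fold (adjusted p = 0.0384). y lost its call without any delaminating or posterior array or anterior 2 (0.0609 to 0.123), and amd without any delaminating or posterior array or anterior 2 (0.0514 to 0.166).

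Fatty acid synthesis genes had 2 of 9 called higher. AcCoAS, which encodes acetyl-CoA synthetase, had 10.98, 11.26 and 11.09 in delaminating, 9.09, 9.59 and 9.48 in posterior and 8.75, 8.20 and 8.44 in anterior cells (6.26-fold, adjusted p = 0.000163), and FASN1, the fatty acid synthase gene, was 3.18-fold higher (adjusted p = 0.00191). The lipid phosphatase gene wun, next of kin to wun2, was 4.56-fold higher at 9.45, 9.06 and 9.71 in delaminating, 7.31, 7.52 and 7.34 in posterior and 7.51, 7.51 and 6.63 in anterior cells (adjusted p = 0.00183). Of 3 annexin genes AnxB10 was 2.45-fold higher (adjusted p = 0.00303) and AnxB11 2.61-fold (adjusted p = 0.0321, and 0.0548 to 0.116 without any array but anterior 1 or 3). Of 32 tetraspanin genes 2 were higher, and Tsp42Ed was 4.68-fold higher (adjusted p = 0.00399).

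Of 4 genes of the Gr36 taste receptor locus on 2L, 4 were called lower. Gr36a, Gr36c and Grl36a had delaminating means of 4.25, 5.03 and 4.10, against anterior means of 6.32, 7.29 and 6.16. With Gr36b all were dim in delaminating cells, Gr36a and Grl36a also in anterior cells. Of 21 genes of the beat and side families 4 were lower. Of 7 myoblast fusion genes 3 were lower, kirre beside rst and hbs (kirre 2.45-fold lower, adjusted p = 0.0444), and kirre lost its call without any delaminating array, posterior 2 or 3, or anterior 1 or 2 (0.0606 to 0.159). Of 7 retinal determination genes 3 were lower, namely tsh, Optix, which was dim at 4.71, 4.78 and 4.71 in delaminating beside 7.09, 6.88 and 6.23 in anterior cells (adjusted p = 0.000918), and so, 3.26-fold lower (adjusted p = 0.0121, but 0.0557 without delaminating 1 and 0.0509 without delaminating 2).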
